A study of Homo sapiens with 7 samples.

Results

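The sites described here are the MYCN peaks of chromosome 22 in Kelly, an established neuroblastoma cell line of human origin with an amplified MYCN gene. They are all rows of the deposited peak list of the TAE684-sensitive cells that lie on chromosome 22, which came to 1807 of 64657 rows. Each row is 1 summit, where the signal within a called interval is locally highest, and the 1807 summits lay in 1349 separate intervals. Binding was measured by sequencing the DNA that a MYCN antibody recovered from sheared, formaldehyde-fixed chromatin (ChIP-seq). The sensitive Kelly cells received DMSO for 48 h and gave 2 MYCN ChIP samples and 1 input sample, where input is chromatin sequenced without an antibody. The resistant Kelly cells received TAE684, which inhibits the kinase ALK, at 1 µM for 48 h and gave 2 ChIP and 2 input samples. All samples come from this 1 line, and the labels do not say how resistance arose.

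On chromosome 22 the list of the resistant cells held 1807 rows, and 1807 of them were identical to those of the sensitive cells. Of those rows, 1807 carried peak names of the sensitive list and 0 carried names of the resistant list. Sensitive and resistant cells were therefore not compared, and all values below refer to the sensitive cells. Both ChIP samples share this list, so no value has a replicate error.

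MYCN is a transcription factor of the MYC family that pairs with MAX and binds E-box sequences, mostly in the promoters and enhancers of active genes. When its level is high, as in neuroblastoma with MYCN amplification, it also occupies many weaker sites in open chromatin. Chromosome 22 is a small acrocentric chromosome: its short arm carries repeated ribosomal RNA genes and other repeats, and its long arm is rich in genes and in GC. By the gene order of RefSeq's GRCh38 table, the long arm carries, from the centromere outwards, TBX1 (a developmental regulator lost in the DiGeorge deletion), BCR (the partner of ABL1 in chronic myeloid leukaemia), SMARCB1 (a chromatin remodelling subunit lost in rhabdoid tumours) and EWSR1 (rearranged in Ewing sarcoma). NF2, a tumour suppressor of Schwann cells, follows, then SOX10, a neural crest regulator, EP300, a histone acetyltransferase, and SHANK3, a synaptic scaffold protein. This order is background: the table is on another build than the peaks, which are on hg19, so no gene was assigned to a site and no sequence was read.

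The authors' fold enrichment compares the ChIP signal at a summit with a local background taken from the input. Read counts were not used here. Instead each summit's p-value and fold enrichment were used to solve for its ChIP fragments and its background, given below in input fragments over the same position. A solution was found at 1807 of 1807 chromosome 22 summits. Per kb of genome, the mean depth was 17.9 ChIP and 11.5 input fragments. The genome-wide mean background was 1.61 input fragments, which is also the lowest value a summit can have.

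Chromosome 22 was selected on its high summit density, high background and low median fold enrichment, so those values and others computed from the same list are given as descriptions, with no test. No cut-off on these values was applied. Among the 22 autosomes, chromosome 22 had the highest median background and the lowest median fold enrichment. Its median background was 11.62 input fragments, with quartiles of 8.12 and 15 (95% CI of the median 11.06 to 12, from order statistics). Chromosome 17 followed with 10.36, and the median of the other 21 autosomes was 7.14. The median fold enrichment was 4.60 on chromosome 22 (95% CI 4.47 to 4.71), with 4.87 on chromosome 17 and 4.92 on chromosome 19 as the nearest values. The highest was 6.0, on chromosome 4. These confidence intervals, like the others below, treat sites as independent draws, which neighbouring summits are not. They cover no difference between replicates, and the reads carry no molecular identifiers that would tell molecules apart.

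**Figure D1:**
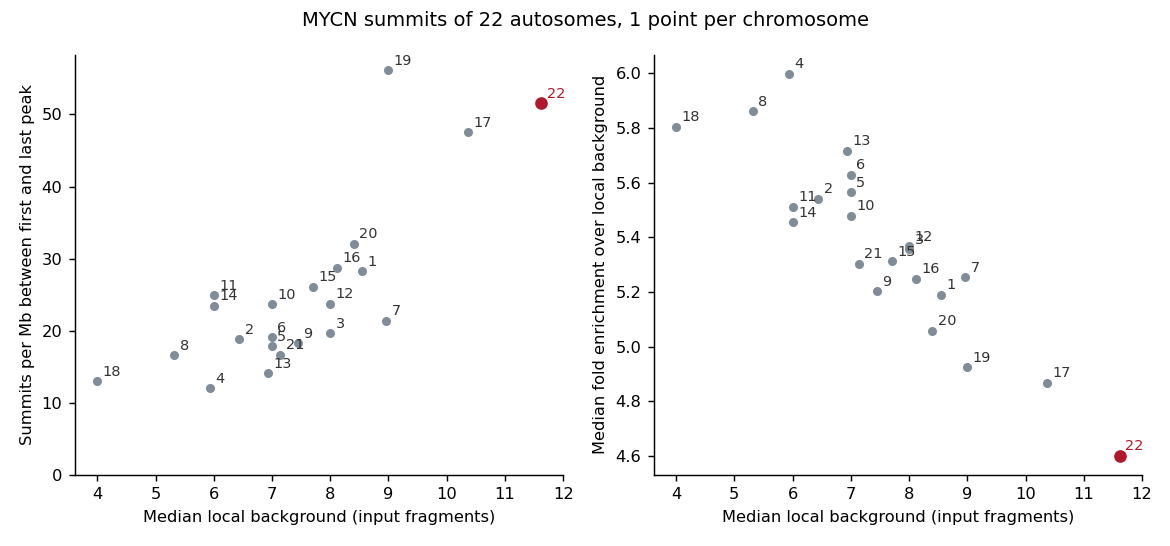
Each point is an autosome, labelled by its number, with the median local background of its summits in input fragments on the x axis. The y axes show summits per Mb between the first and last peak (left) and the median fold enrichment (right, axis not starting at 0). Chromosome 22, in red, lies farthest to the right in both panels, with 51.6 summits per Mb and a median fold enrichment of 4.60.

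Low fold enrichment did not go with few ChIP fragments. Over a chromosome 22 summit lay 81 ChIP fragments at the median, and the quartiles were 55 and 124.5. That was the highest median of the 22 autosomes, just above the 80 of chromosome 17 and above the 71 of chromosome 19. The median over the other 21 autosomes was 61, and the lowest was 45, on chromosome 18. ChIP and input were thus both high at these summits. The median −log10 q was 16.04, the second highest after chromosome 17 with 16.6.

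How dense the sites were depended on the length that divides them. The first peak began at 16200730, and the 16 bins of 1 Mb before it held none. This stretch takes in the short arm. Counted up to the last peak, as for the other chromosomes, chromosome 22 held 35.3 summits per Mb, fewer only than chromosomes 19 and 17 among the autosomes. Chromosomes 1 to 21 together held 21.7 on that count, a ratio of 1.63 (95% CI 1.55 to 1.70). Between its first and last peak, over 35.0 Mb, it held 51.6 per Mb, second after chromosome 19 with 56.1 and ahead of chromosome 17 with 47.6. The ratio to chromosomes 1 to 21 was then 2.32.

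Relative to the other autosomes, weak summits were denser than strong ones, on a chromosome selected on low fold enrichment and high background. The background also decides how low a listed fold enrichment can be. The order of the ratios below thus follows in part from the selection and is a description. Summits with a fold enrichment under 3 numbered 265 on chromosome 22, which is 14.7% (95% CI 13.1 to 16.4) against 8.72% of the whole list. Chromosome 17 had 13.5%, within this interval, and chromosome 19 had 11.1%. Between the first and last peaks, they stood at 7.57 per Mb on chromosome 22 and 1.94 per Mb on chromosomes 1 to 21, a ratio of 3.91. The ratio was 2.82 for a fold enrichment of 3 to 5 and 1.89 for 5 to 10. It was 1.29 for 10 to 20. At 20 or more it was 0.498, from only 3 summits on chromosome 22. The highest number of ChIP fragments in the list, 280, limits how high the fold enrichment can be over a high background. Counted up to the last peak, the ratio was below 1 already at 10 to 20, at 0.905.

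Of the summits, 116 reached a fold enrichment of 10, or 6.42% (95% CI 5.33 to 7.65), while 12% of the whole list reached it. Both neighbours in rank had a larger share, 8.19% on chromosome 17 and 8.99% on chromosome 19. The 116 summits had a median background of 9.12 input fragments and a median of 184.5 ChIP fragments. The 7370 such summits of chromosomes 1 to 21 had 5.60 and 135. These 2 differences are not separate: at a given fold enrichment, more input means more ChIP fragments. The chromosome was also selected on its background. The 3 summits of at least 20 made up 0.166% (95% CI 0.0343 to 0.484), against 0.778% of the list. No summit of the list had more than 280 ChIP fragments. This limits the fold enrichment that a high background allows. Whether it accounts for these smaller shares was not tested. From 16 input fragments upwards, 0.292% of summits reached 10 on chromosome 22 and 0.415% on chromosomes 1 to 21. Between 8 and 12 the shares were 5.68% and 10.7%, and between 4 and 8 they were 9.12% and 12.995%. Chromosome 22 had the larger share from 12 to 16 fragments, 6.46% against 5.13%. The same held above the genome-wide mean and below 4, with 23.7% against 19.4%. At the genome-wide mean, 1 of its 12 summits reached 10, against 872 of 4361. At least 252 ChIP fragments, which is 90% of the highest number in the list, 280, were found at 22 summits, or 1.22% (95% CI 0.765 to 1.84), against 0.634% of the list. Chromosome 17 had a larger share, 1.55%, and chromosome 19 a smaller one, 0.543%.

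The whole distribution of the background was shifted on chromosome 22. A background above 12 input fragments was found at 786 of its summits, or 43.5% (95% CI 41.2 to 45.8), against 15.7% of the whole list. Chromosome 17 had 35.4% and chromosome 19 had 14.4%. At the other end, 12 summits had a background at the genome-wide mean, or 0.664% (95% CI 0.344 to 1.16), against 7.01% of the list. Chromosome 19 had a like share, 0.694%, and chromosome 4 had the largest, 14.8%. The lower 10% of chromosome 22 summits reached up to a background of 5, against 2 for the median of the other autosomes. The highest background on chromosome 22 was 28 input fragments, against 125.6 on chromosomes 1 to 21. Values that high were not usual there: among 1-Mb bins with at least 10 summits, only 1 had a median background above 20. That bin, on chromosome 2 from 16 Mb, had a median of 96.1.

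**Figure D2:**
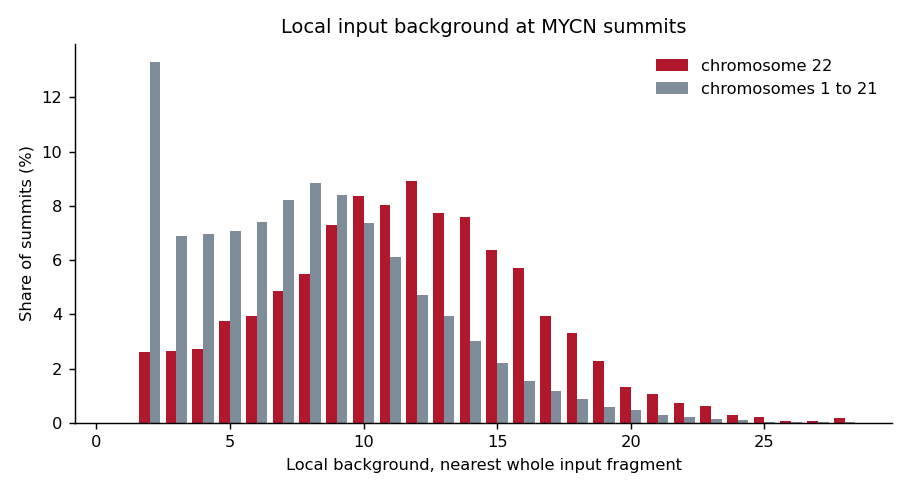
The bars give the share of summits, in percent, at each local background rounded to whole input fragments, for chromosome 22 (red) and chromosomes 1 to 21 (grey, drawn up to 28 fragments). Chromosome 22 is highest at 12 fragments, with 8.91% of its summits, while chromosomes 1 to 21 have 13.3% of theirs at 2 fragments and 8.83% at 8.

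MACS2 takes as background the largest estimate among windows of different size, and the value shows which window it came from. On chromosome 22 the background was a whole number of fragments, as for input over the summit itself, at 62.4% of summits (95% CI 60.1 to 64.6). It was a step of the 1-kb window at 30.2% and of the 10-kb window at 6.81%. The shares on chromosomes 1 to 21 were 58.9%, 28.0% and 5.98%. The background was higher on chromosome 22 in each class. At whole-fragment summits the median was 13 against 9, in the 1-kb class 10.36 against 7.14, and in the 10-kb class 4.75 against 3.04. The raised input was thus seen in each class, but a window's value is known only at the summits where it was the largest estimate. Input over 1 and 10 kb around the other summits was not seen. Some values fit more than 1 window, and each was put in the first class it met. The list gives the background at summits only, so neither the input over the rest of the chromosome nor its copy number was measured.

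Because the background divides the fold enrichment, summits were also compared within classes of background. Between 8 and 12 input fragments, the 528 summits of chromosome 22 had a median fold enrichment of 4.34 (95% CI 4.06 to 4.60), against 4.99 for 17931 summits of chromosomes 1 to 21. Between 4 and 8, the 285 summits had 4.75 (95% CI 4.60 to 4.93) against 5.20. In both classes the median was below that of each of the other 21 autosomes, whose lowest values were 4.69 and 4.91. The class of 8 to 12 did not fully equalise the background, with a median of 10.0 on chromosome 22 and 9.24 on chromosomes 1 to 21. Chromosome 17, also at 10.0, had a median fold enrichment of 4.71. From 12 to 16 fragments chromosome 22 had 4.47 against 4.67, with 6 autosomes lower. From 16 upwards it had 4.17 against 4.31, with 10 autosomes lower. Over all backgrounds above 12, which leaves out summits at exactly 12, its median differed from that of chromosomes 1 to 21 by only -0.043. That range held 43.5% of its summits.

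Summits of low background went the other way in part. Above the genome-wide mean and below 4 input fragments, the 97 summits of chromosome 22 had a median fold enrichment of 6.74 (95% CI 6.08 to 7.51), against 6.37 on chromosomes 1 to 21. That was above each of the other 21 autosomes, whose highest value was 6.66, though its interval spans most of their range. At the genome-wide mean the 12 summits had 6.16 (95% CI 5.06 to 7.27) against 6.78. The summits of chromosome 22 were also spread differently over the classes: those from 12 to 16 and from 16 upwards made up 29.99% and 18.98% of them, against 13.5% and 5.50% on chromosomes 1 to 21.

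**Figure D3:**
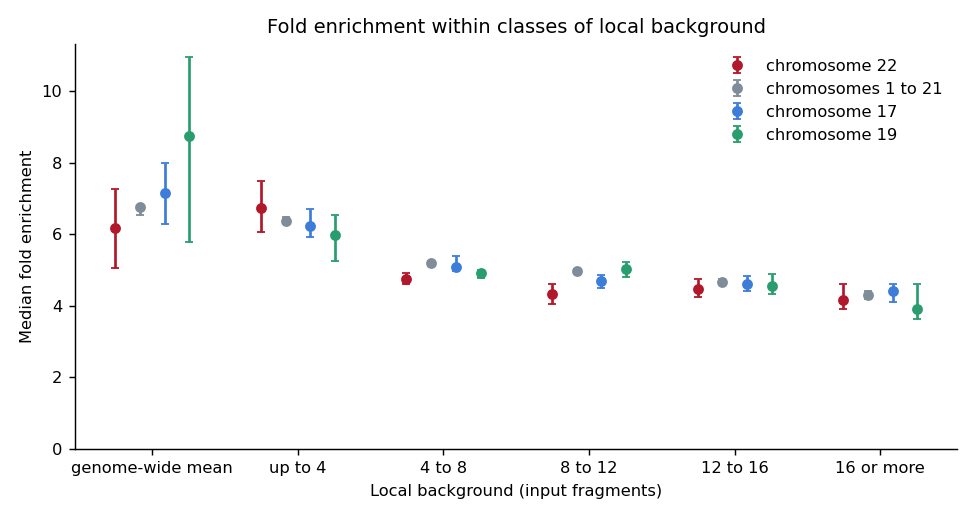
The median fold enrichment (y axis) is shown within classes of local background in input fragments (x axis) for chromosome 22, chromosomes 1 to 21, chromosome 17 and chromosome 19, with bars for 95% intervals of the median. From 8 to 12 fragments chromosome 22 has 4.34 and chromosomes 1 to 21 have 4.99, while from 16 fragments upwards the values are 4.17 and 4.31.

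With the other autosomes averaged at the same whole-number backgrounds as chromosome 22, the difference became smaller and kept its sign. The mean log2 fold enrichment of chromosome 22 minus that of the other autosomes was -0.22 without this matching and -0.067 with it. Both were the lowest of the 22 autosomes, ahead of chromosome 17 without matching (-0.14) and chromosome 19 with it (-0.039). For the log2 number of ChIP fragments the same difference was 0.38 without matching and -0.066 with it. Matching holds the background equal, so with it the fold enrichment and the fragment number say nearly the same thing. The background also decides how many fragments put a summit on the list, so these differences describe listed summits only.

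In bins of 1 Mb, high background was found along most of the chromosome. Of its 52 bins up to the last peak, 36 held a summit and 35 held at least 10. The occupied bins held a median of 49 summits, with quartiles of 33.25 and 62.25, against 17 with quartiles of 8 and 32 on chromosomes 1 to 21. In 34 of the 36 the number was above 17. Among bins with at least 10 summits, the median background was above the median of such bins elsewhere, 7, in 32 of 35, and above their upper quartile, 8.50, in 28 of 35. The median fold enrichment was below the median elsewhere, 5.52, in 33 of 35, and below the lower quartile, 4.97, in 26 of 35. A summit at the genome-wide mean background was found in 8 of 35 bins, or 22.9%, against 63.5% of 1792 bins elsewhere.

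**Figure D4:**
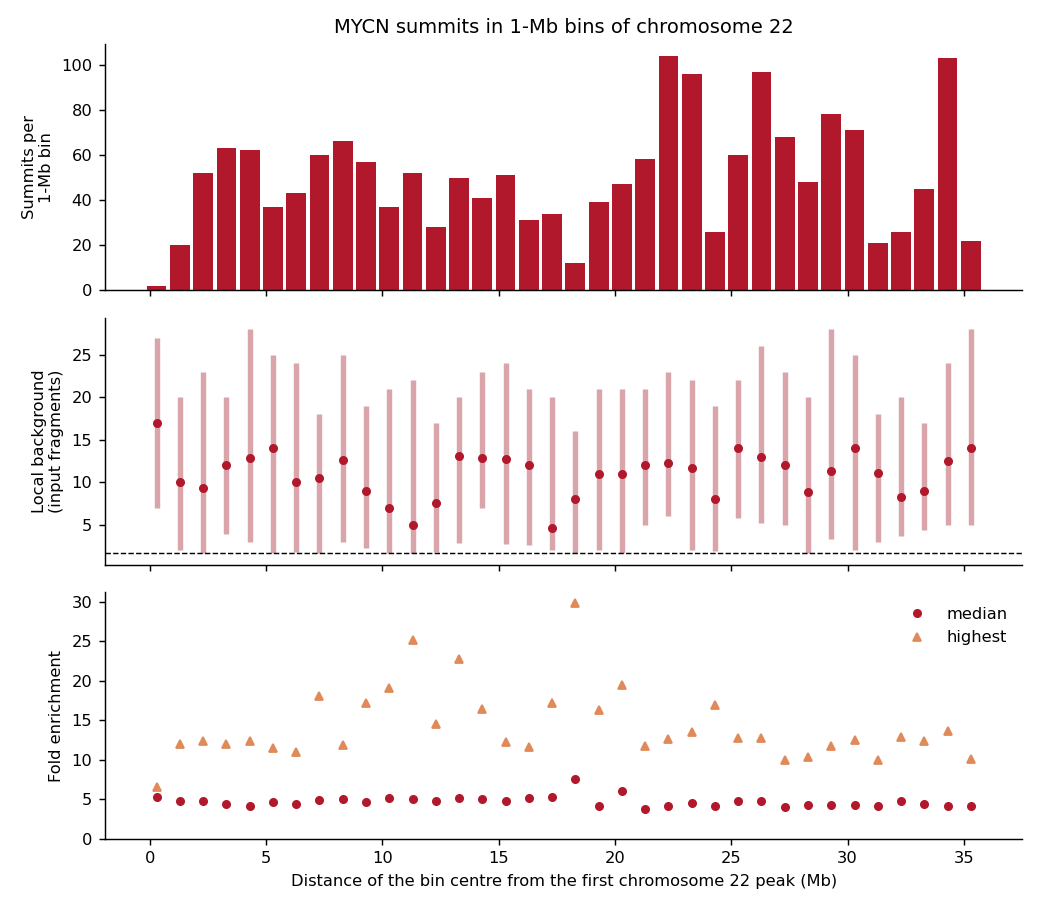
Each position is a 1-Mb bin of chromosome 22, placed by the distance of its centre from the first peak in Mb. The panels show the number of summits, the local background (points are medians, bars the lowest to the highest value, the dashed line the genome-wide mean of 1.61 input fragments), and the median and highest fold enrichment. The fullest bins, with 104 and 103 summits, lie past the middle and near the end, and the highest fold enrichment, 29.9, stands in a bin of only 12 summits.

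The 5 fullest bins held 478 summits, or 26.5% of the chromosome, and all lay in its distal part. The bin from 38 to 39 Mb held 104 summits in 71 intervals, with a median background of 12.25 and a median fold enrichment of 4.21. The bin from 50 to 51 Mb held 103, with 12.46 and 4.10. The bins from 42 to 43 Mb and from 39 to 40 Mb held 97 and 96 summits, with median backgrounds of 13 and 11.62. The bin from 45 to 46 Mb held 78. None of these 5 bins had a summit at the genome-wide mean background. Elsewhere in the autosomes, 20 of 2575 occupied bins held 104 summits or more, so the fullest bins of chromosome 22 were not the fullest of the genome.

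Background differed widely between bins. Among bins with at least 10 summits, the highest median, 14 input fragments, was shared by the bins from 21 to 22, 41 to 42, 46 to 47 and 51 to 52 Mb. In the bin from 41 to 42 Mb, 45 of 60 summits had a background above 12, and the median summit had 117.5 ChIP fragments, the most of any bin with at least 10 summits. The lowest medians were 4.60 from 33 to 34 Mb, 4.94 from 27 to 28 Mb and 7 from 26 to 27 Mb. In those 3 bins the median fold enrichment was 5.33, 5.06 and 5.15, and the median number of ChIP fragments was 50, 45 and 56. Of the 12 summits at the genome-wide mean, 4 lay in the bin from 27 to 28 Mb and 2 in the bin from 26 to 27 Mb.

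The median fold enrichment per bin varied less, apart from 1 thinly filled bin. It ran from 3.83 from 37 to 38 Mb to 7.54 from 34 to 35 Mb, and the latter bin held only 12 summits. The next highest were 6.08 from 36 to 37 Mb and 5.33 from 33 to 34 Mb. The lowest after 3.83 were 4.08 from 43 to 44 Mb and 4.10 from 50 to 51 Mb. The bin from 43 to 44 Mb was the only one with at least 10 summits that had none with a fold enrichment of 10, and its highest value was 9.99.

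The distal end held more summits and fewer strongly enriched ones. From 17 to 29 Mb there were 577 summits, with a median background of 10.36 and a median fold enrichment of 4.67. From 29 to 41 Mb there were 589, with 12 and 4.72. From 41 to 52 Mb there were 639, with 12 and 4.34. The share that reached a fold enrichment of 10 was 7.28% (95% CI 5.30 to 9.71), 8.49% (95% CI 6.37 to 11.0) and 3.76% (95% CI 2.42 to 5.54). These stretches were drawn after the values were seen. They leave out the 2 summits before 17 Mb.

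Bins of chromosome 22 also had more input than bins elsewhere with as many summits. Among bins of 10 to 29 summits, the median of their median backgrounds was 8.19 in 7 bins of chromosome 22 and 6 in 1067 bins of chromosomes 1 to 21. Among bins of 30 to 49 summits it was 10.5 against 7.42, and among bins of 50 to 69 it was 12 against 8.26. Among bins of 70 to 110 summits it was 12.36 in 6 bins against 9 in 122. The fullest bins of chromosome 17 were alike, with 12.23 in 20 bins, while those of chromosome 19 had 9 in 19 bins. The median fold enrichment in these fullest bins was 4.28 on chromosome 22, 4.63 on chromosome 17 and 4.90 on chromosome 19. Chromosome 19, with the most summits per Mb, thus had fewer input fragments at its summits than chromosome 22.

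**Figure D5:**
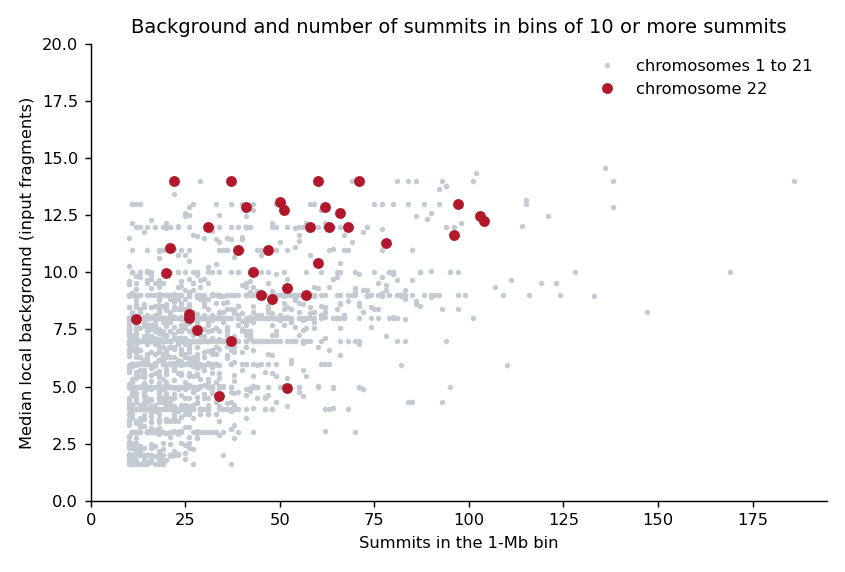
Each point is a 1-Mb bin with at least 10 summits, with its number of summits on the x axis and its median local background in input fragments on the y axis, for chromosome 22 (35 bins, red) and chromosomes 1 to 21 (1791 bins, grey, with 1 bin above 20 fragments not drawn). Most bins of chromosome 22 lie in the upper part of the cloud, and its lowest ones are at 4.60 and 4.94.

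Within chromosome 22, bins with more summits tended to have more input. Over the 35 bins, the number of summits and the median background had a Pearson r of 0.40 and a Spearman rho of 0.43. The 1792 bins elsewhere gave 0.34 and 0.42. The median background and the median number of ChIP fragments were more closely related, with an r of 0.85 and a rho of 0.87 on chromosome 22. The median background and the median fold enrichment had an r of -0.32 and a rho of -0.25. All bins share the same libraries and depth, and the background enters the fold enrichment, so these are descriptions.

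Chromosome 22 was also set against stretches of its own size. Cutting chromosomes 1 to 21 into whole stretches of 36 Mb from their first bin gave 68 of them, holding 77.9% of their summits and leaving out the distal ends. The stretch closest to chromosome 22, on chromosome 17 from 36 to 72 Mb, had a median background of 11 input fragments, 1704 summits and a median fold enrichment of 4.74. Cut from the last bin backwards, chromosome 17 from 46 to 82 Mb passed chromosome 22 in background, with 12 input fragments, and had 1906 summits, a median of 86 ChIP fragments and a median fold enrichment of 4.69. With a stretch at every start on the 1-Mb grid, 14 of 2106 overlapping stretches, on chromosomes 1 and 17, had a median background of at least 11.62. The lowest median fold enrichment among these 2106 was 4.64, on chromosome 17 from 41 to 77 Mb, just above the 4.60 of chromosome 22. Parts of chromosome 17 were thus as high in background and nearly as low in fold enrichment.

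The 10 sites of highest fold enrichment all lay outside the 5 fullest bins. The strongest lay from 34810846 to 34811137. At its summit, 34810969, the fold enrichment was 29.9 and the −log10 q 93.7. It had 120 ChIP fragments over a background at the genome-wide mean, and it ranked 77 in the whole list. The next, from 27567327 to 27567941, reached 25.1 with 116 ChIP fragments over 2 input fragments. The third, from 29949524 to 29950047, reached 22.8 and differed from both: it had 253 ChIP fragments over 6.16 input fragments and the highest −log10 q of the chromosome, 158.9.

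The other sites among the 10 strongest had fold enrichments of 17.01 to 19.7. They began at 27207321 (19.7), 36052391 (19.5), 26176619 (19.1), 23318413 (18.1), 25871347 (17.2), 33047685 (17.2) and 36232373 (17.01). The site at 26176619, with 208 ChIP fragments over 6.02 input fragments, and the site at 25871347, with 168 over 5.32, had more input than the other 5. A further summit in the interval beginning at 40600326 had the same fold enrichment as the last of the 10. Of the 10, 6 were the only summit of their interval. None had a background above 6.16, which is below the lower quartile of the chromosome, 8.12. With at most 280 ChIP fragments at any summit of the list, fold enrichments this high require a low background.

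The sites with most ChIP fragments were different ones. A summit at 20104922, in an interval from 20104481 to 20105645, had 277 fragments over a background of 13.4 and a fold enrichment of 12.4. A summit at 41418680 had 275 over 15, and its fold enrichment was 11.1. At 46518526 there were 273 over 25, which gave a fold enrichment of 6.77. The highest number in the list, 280, would have given little more over that background. Summits at 19419976 and 39795719 had 271 each, with fold enrichments of 10.3 and 11.1. Of the 10 summits that ranked first by fold enrichment, 0 were among the 10 that ranked first by ChIP fragments, and the first 100 of each ranking shared 34. The background had a median of 8 in the former 100 and 15 in the latter.

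The weakest site stood on the highest input of the chromosome. The lowest fold enrichment was 1.83, at 45093476, with 81 ChIP fragments, and the next was 1.98, at 20001106, with 88. Both had a background of 28 input fragments, the highest of the chromosome. Another summit with that background, at 51195604 near the distal end, had 162 ChIP fragments and a fold enrichment of 3.62. With 81 ChIP fragments, a summit at the chromosome's highest background was thus among its weakest, although 81 is also its median number. Less input lay under another weak summit, at 46477447, with a fold enrichment of 2.12 over 14 input fragments. The background decides how low a listed fold enrichment can be, so this pairing is in part built into the list.

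Intervals on chromosome 22 were about as wide as elsewhere and held as many summits. They covered 553 kb, or 15.8 kb per Mb between the first and last peak, second to chromosome 19 with 17.6. The median width was 280 bp, against 278 bp on chromosomes 1 to 21. A single summit was found in 77.3% of them (95% CI 74.99 to 79.5), against 76.5%. Intervals with 4 or more summits numbered 33, or 2.45% (95% CI 1.69 to 3.42), against 2.63%. The highest fold enrichment of an interval had a median of 4.53 with 1 summit and 7.08 with 4 or more, against 5.43 and 8.85 elsewhere. The highest number of ChIP fragments had medians of 71 and 172, against 53 and 146. Taking the highest of more summits raises such values by itself.

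The widest interval, from 50353535 to 50356439, spanned 2905 bp in the second fullest bin. Its 6 summits had fold enrichments of 2.40 to 9.56, with 60 to 222 ChIP fragments over 11.3 to 17.2 input fragments. The interval from 31741554 to 31743823 also held 6 summits over 2270 bp. Its neighbouring summits at 31741984 and 31742435 reached 11.4 and 11.1, with 247 and 228 ChIP fragments, while the next, at 31742783, had 3.53 over the highest background of the interval, 20. The next widest, from 41842607 to 41844772, held 3 summits and reached 11.4.

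Other intervals with 6 summits lay from 39915309 to 39917223 and from 45404593 to 45406387. In the former, values ran from 3.67 to 8.72. In the latter, 1 summit at 45405821 reached 11.8 with 240 ChIP fragments, while the other 5 ran from 2.38 to 5.23. No interval of chromosome 22 held more than 6 summits.

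Neighbouring intervals were closer than elsewhere, mainly at distances of 1 to 10 kb. The median stretch between intervals was 11.8 kb, with quartiles of 3.33 and 28.2 kb, against 17.7 kb with quartiles of 3.53 and 56.0 kb on chromosomes 1 to 21. On chromosomes 17 and 19 the median was smaller, 9.99 and 9.98 kb. Another interval lay within 10 kb for 69.98% (95% CI 67.5 to 72.4), against 59.5%. Chromosomes 17 and 19 had 71.6% and 72.0%. Within 1 kb the share was 27.0% (95% CI 24.6 to 29.4), against 29.4%. The nearest neighbour lay at 1 to 10 kb for 43.0% (95% CI 40.3 to 45.7), against 30.1%. Intervals more than 100 kb from any other numbered 9, or 0.667%, against 4.71%.

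Between called intervals, the longest stretches without a peak lay next to the centromere and near the distal end. The longest of these, from 16202232 to 17081976, spanned 879.7 kb, and another, from 17082249 to 17576552, spanned 494.3 kb, with a single interval between them. Before the longest lay the first 2 peaks of the chromosome, and the second of these, from 16201910 to 16202231, had a background of 27 input fragments and a fold enrichment of 3.91. The remaining stretch, from 48027688 to 48550863, spanned 523.2 kb within the bin from 48 to 49 Mb, which held 26 summits.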

How the data were processed

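The files used were 2 MYCN peak lists on hg19, 1 per state. Per the submitters' processing notes, MACS2 2.1.1, deepTools 2.2.4, Picard, STAR 2.5.1b and SAMtools 1.3.1 were used; for their settings, and for how the ChIP samples of a state were combined, the sources used here give nothing. The deposited fold enrichment is a ratio of ChIP to local background per summit, the deposited −log10 values are its p-value and its q-value, and the deposited integer score follows from the latter and was not analysed. These are the authors' values.

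ChIP fragments and background were solved from fold enrichment and p-value by the MACS2 relations (pileup plus 1 over background plus 1, Poisson upper tail), with a scale of 0.641 found from the list, a fragment length of 140 bp and a tolerance of 0.0005 on −log10 p. At 2 chromosome 22 summits a second number met this tolerance and the closer was taken. The procedure was tested on simulated data. Background classes used a tolerance of 0.001.

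Bins of 1 Mb were counted from position 1 and include unmappable sequence. Shares carry exact (Clopper-Pearson) 95% intervals. No p-value was computed, since 1 list per state has no replicates. Sites named were the 10 summits of highest fold enrichment, the 5 with most ChIP fragments, the widest and fullest intervals, the fullest bins, the bins of extreme background and the longest stretches without a peak. Bins of extreme fold enrichment and the sites of lowest fold enrichment and highest background were added after seeing the values. The chromosome and all choices were made with earlier results of these data known. No hg19 annotation or sequence was used. Positions count from 1. The software was Python 3.11.15 with scipy 1.17.1, pandas 2.3.3, numpy 2.4.6 and matplotlib 3.10.9.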

Additional observations from a re-analysis of the deposited data

How the results depend on the processing

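No paired analysis was possible because the replicates of a state were deposited as 1 shared list, which also leaves none to drop. The count of 1807 summits became 765 with a fold enrichment of at least 5, and was within 1.5 times under q thresholds (−log10 q from 5, 1615 summits; from 10, 1218) and per interval (1349). The density ratio to the other autosomes, 1.63, was 1.71 from a −log10 q of 10, 1.23 with a fold enrichment of at least 5, 2.11 over bins with at least 1 summit, 2.32 between first and last peaks and 1.75 without chromosomes 17 and 19. The median fold enrichment minus that of the other autosomes, -0.76, was -0.93 and -1.22 from a −log10 q of 5 and 10, -0.96 for the strongest summit of each interval, -0.96 over bin medians and -0.043 at backgrounds above 12 input fragments. It turned to 0.16 at backgrounds under 4, and the cause was not tested. The ratio of median backgrounds, 1.54, was 1.67 for intervals with 1 summit, 1.61 over bin medians and 1.66 without chromosomes 17 and 19. The fullest bin held 73 to 104 summits, or 71 intervals, and began at 38 Mb, or at 38.5 Mb with shifted bins. The alternatives by background, by window and by the start of the 36-Mb stretches were chosen after seeing the data. The depth sets a floor too: no listed summit of chromosome 22 had fewer than 16 ChIP fragments. At the other end, no summit of the list had more than 280, which limits high fold enrichments over high backgrounds.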
